A study of Drosophila melanogaster with 2 samples.

Results

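Isoform dominance, the degree to which a single transcript carries the output of a gene, was described in 1 mRNA library of adult fruitflies. The genes were those with 2 or more listed transcripts and a summed count of at least 100, and 6333 of the 17698 listed genes qualified. Members and their shares were therefore chosen and described from the same measured values of the same library. The series holds 2 libraries, this one and a small RNA library that was not used here, both from Trizol-extracted total RNA of adults and neither with a replicate. For the mRNA library, sex, strain, age in days and number of flies were not given, and there was no treatment or genotype to compare. With 1 library there is no test, and every value below is a description across genes, which are not replicates.

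A gene can make several transcripts in different ways. Transcription can begin at different promoters, exons can be joined in different combinations, and the 3′ end can be cleaved at different sites, which changes the length of the untranslated tail. In flies, alternative exons are best known from sex determination, muscle and neurons, and long 3′ ends are best known from the nervous system. A whole animal mixes the transcripts of all its cells. In such a mixture, fewer cells of a type and less RNA per cell cannot be told apart, and a gene that looks evenly split may hold cells that each use a single transcript.

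The table lists 34736 transcripts with a total of 26179479 counts. Of the listed genes, 10312 have a single transcript and 7386 have more, of which 1053 fell short of the count minimum and 110 of these had no counts at all. The 6333 genes described here hold 21949 transcripts, 72.0% of all counts and 65.2% of all TPM (a level corrected for transcript length and for the total of the library). The library had RNA of both reproductive tracts and of the eye, at levels that varied widely between markers. The 5 ovary markers ranged from 15.6 TPM in Cp15 to 875 TPM in Vm26Aa, both eggshell genes. The 4 testis markers ranged from 1.46 TPM in can to 934 TPM in Mst87F. The 3 accessory gland markers ranged from 334 TPM in SP to 629 TPM in the seminal fluid gene Acp36DE. The 5 eye markers ranged from 50.1 TPM in ninaC to 1671 TPM in the rhodopsin gene ninaE. The markers of indirect flight muscle were low, at 23.6 TPM for Act88F, 11.4 TPM for fln and 5.86 TPM for TpnC4. The neuron markers nSyb, brp and elav had 55.7, 11.8 and 4.82 TPM. Of the 3 fat body markers, the yolk protein gene Yp1 had 913 TPM, while Lsp2 and Fbp1, known from the larval fat body, had 2.81 and 0.07 TPM.

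The leading transcript usually held most of its gene. Its share of the gene's TPM had a median of 87.8% over the 6333 genes, and its lower and upper quartiles were 65.7% and 97.6%. The second transcript had a median share of 9.73%. A leading share of at least 90% was reached by 2911 genes, which is 46.0% of those described, and 444 genes had all of their TPM in 1 transcript. At the other end, 642 genes (10.1%) had no transcript with as much as 50%. When a transcript was counted as in use at 10% or more of its gene, 3200 genes (50.5%) used 1 transcript, 2230 (35.2%) used 2, 649 (10.2%) used 3, 203 used 4 and 50 used 5 or more. Of the 21949 transcripts, 2146 (9.78%) had a count of 0 and 4874 (22.2%) held less than 1% of their gene. A transcript at 0 could have had up to 3 counts in this library, a limit that covers counting error and not the way reads were assigned among transcripts.

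The more transcripts a gene had listed, the less its leading transcript held. The median leading share was 96.3% for the 3141 genes with 2 transcripts, 84.7% for the 1292 with 3, 74.3% for the 762 with 4, 60.2% for the 921 with 5 to 9, and 39.4% for the 217 with 10 or more. Part of this fall follows from the number itself, since an equal division would give 50%, 33.3%, 25%, 16.7% and 8.33% in these classes. The medians lay above an equal division in every class, but the largest share cannot fall below it, so nothing is read from this. The effective number of transcripts, which is the inverse of the summed squared shares and equals the number listed when all are even, had medians of 1.08, 1.35, 1.68, 2.21 and 4.0. Genes with a leading share of at least 90% made up 69.1% of those with 2 transcripts and 8.58% of those with 5 to 9. Among genes with 10 or more, only 1 of 217 reached it. Transcripts without counts were more frequent in the longer lists, at 5.30% of transcripts in genes with 2 and 17.0% in genes with 10 or more.

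**Figure D1:**
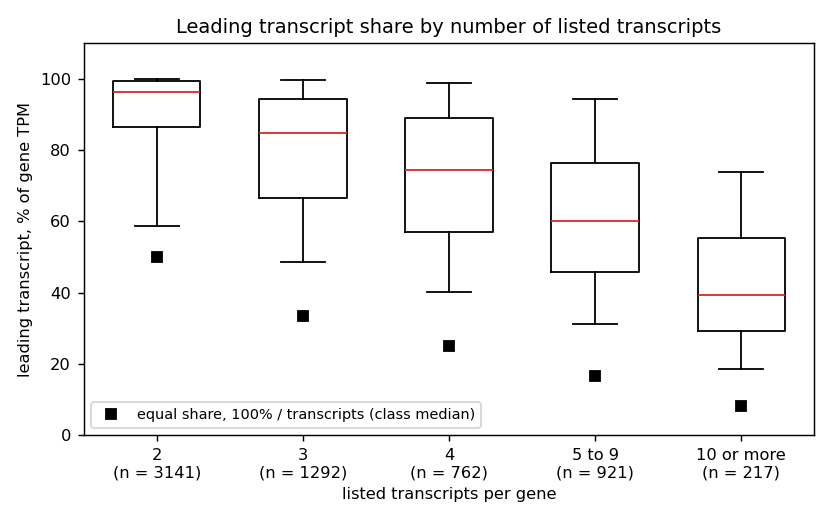
Leading transcript share of the gene's TPM in percent (vertical axis) by number of listed transcripts (horizontal axis). Boxes span the quartiles with the median in red, whiskers run from the 5th to the 95th percentile of genes, and black squares mark an equal division. The medians fall from 96.3% to 39.4%, and all lie above the squares, below which a leading share cannot fall.

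Abundant genes with 2 transcripts were more strongly led by 1 of them. In this class the median leading share was 93.6% for 644 genes with 100 to under 300 summed counts, 95.4% for 983 genes with 300 to under 1000, 96.6% for 926 genes with 1000 to under 3000, 97.3% for 483 genes with 3000 to under 10000, and 99.4% for 105 genes with 10000 or more. The share of genes led by at least 90% went from 59.3% in the lowest class to 88.6% in the highest. Over all genes the order was not kept, with medians of 89.6%, 89.6%, 87.4%, 83.9% and 89.2%, and the number of listed transcripts moved with level, from a median of 2 in the lowest class to 4 in the highest. For genes with 5 to 9 transcripts the medians were 67.6%, 59.7%, 57.0%, 61.6% and 65.5%. By TPM, genes with 2 transcripts had their lowest median, 90.9%, between 3 and 10 TPM, and medians of 99.2% at 300 TPM or more and 99.5% below 3 TPM.

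The way in which the first 2 transcripts of a gene differed also went with dominance. Their start and end were compared in the direction of transcription. In 1889 genes (29.8%) both transcripts had the same start and end and differed in between, in 1813 genes (28.6%) they differed at the start alone, in 1934 (30.5%) at the end alone, and in 697 (11.0%) at both. Among genes with 2 transcripts the median leading share was 91.9% where start and end were shared, 97.7% where the start differed, 97.1% where the end differed and 95.2% where both did. Of the genes with shared start and end, 53.8% had a lead of at least 90%, as did 74.1% of those with another start and 76.5% of those with another end. With 3 transcripts listed, the medians were 79.3%, 87.3%, 87.5% and 84.8% in the same order. Transcripts that share both ends also differ less in sequence, and how far this moved the estimates was not tested. Where the first 2 transcripts shared start and end and their spliced lengths lay within 10 nucleotides of each other, the median leading share was 82.6% over 141 genes with 2 transcripts. Lengths were available only where the second transcript had at least 20 counts. This minimum leaves out many strongly led genes, so the 82.6% cannot be set against the 91.9%.

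**Figure D2:**
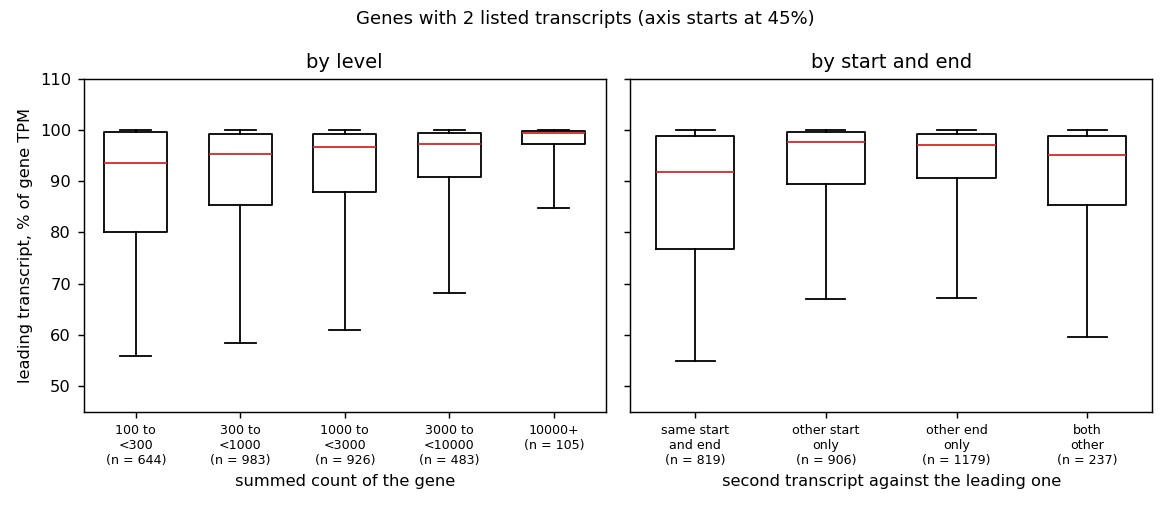
Leading transcript share of the gene's TPM in percent (vertical axes, from 45%) for genes with 2 listed transcripts, by summed count (left) and by whether the second transcript has another start or end (right). Boxes span the quartiles with the median in red, and whiskers run from the 5th to the 95th percentile. The median goes from 93.6% to 99.4% with level and is lowest, at 91.9%, for transcripts with the same start and end.

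Single starts and ends held more of a gene than single transcripts did, since transcripts that share a site are added together there. More than 1 start was listed for 3391 genes (53.5%), and the most used start held a median of 92.0% of the gene's TPM, against 83.6% for the leading transcript of the same genes. In 1858 of these genes (54.8%) it held at least 90%, and in 369 less than 60%. More than 1 end was listed for 3341 genes (52.8%), with a median of 92.5% for the most used end against 86.1% for the leading transcript, at least 90% in 1891 of them (56.6%) and less than 60% in 328. Joining sites within 50 nucleotides gave medians of 91.9% for starts and 92.3% for ends.

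Where both of the first 2 transcripts could be given a length, the leading one was more often the shorter. Spliced lengths were derived from the ratio of counts to FPKM, for transcripts with at least 20 counts. Among 1965 genes with 2 such transcripts, the leading one was the shorter in 1367 (69.6%), and the median difference in length was 182 nucleotides. In the 1545 genes with a lead of at least 90% it was shorter than the second in 1158 (75%), against 216 of 417 evenly split genes (51.8%). The minimum of 20 counts favours long second transcripts, because a long transcript gathers more counts at the same TPM. It was met by 1545 of the 2911 genes with a lead of at least 90% and by all 417 evenly split genes, so these shares are set in part by the minimum and nothing is read from the difference between them. Over the 3314 genes in which every listed transcript had 20 counts, a set chosen by the same minimum and holding the same 1965 genes, the leading transcript was the longest in 839 (25.3%) and the shortest in 1866 (56.3%).

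Strong dominance also occurred where many transcripts were listed. Of 1138 genes with 5 or more transcripts, 80 had a leading share of at least 90%. The most abundant of them was RpS26, a protein of the small ribosomal subunit, on chromosome arm 2L from 18441335 to 18443277. Its leading transcript FBtr0081089, of 639 nucleotides, stood at 3050 TPM, and FBtr0081090, which begins upstream, at 59.8 TPM. The lead held 98.0% of the TPM and 97.8% of 33702 counts (95% exact binomial interval 97.6 to 97.9%). RpS19a and RpS21, 2 further ribosomal proteins, were led by 95.5% and 94.9%. Hsc70-4, a constitutive chaperone on 3R, has 7 transcripts that share their end and begin at 6 places, and FBtr0083057 alone had 2066 TPM while the second, FBtr0083056, had 65.7 TPM. Its lead of 94.9% is therefore a lead of 1 start over the others. Droj2, a co-chaperone of the DnaJ family, was led by 95.8%, Prx2, a peroxiredoxin that removes peroxides, by 97.4%, and endos, an inhibitor of the phosphatase PP2A, by 95.7%. The RNA helicase eIF4A, which unwinds mRNA for translation, lay nearest to the limit among these genes, with 1266 TPM of 1397 TPM in its leading transcript (90.7%).

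Calmodulin and alcohol dehydrogenase showed how the unit matters and which start was in use. Cam, the calcium sensor calmodulin, was led by a transcript of 1484 nucleotides, FBtr0088001, with 834 TPM. Its 2 next transcripts, of 3406 and 5675 nucleotides, reached 53.7 and 13.7 TPM. The lead was 92.4% by TPM but 82.5% of the 25373 counts (95% exact binomial interval 82.1 to 83.0%), as the long transcripts gather more counts per molecule. Adh, alcohol dehydrogenase, is known for a distal promoter used in adults and a proximal one used in larvae. Its upstream start at 14615552 on 2L held 99.8% of 717 TPM. Most of this came from FBtr0100589 with 698 TPM, followed by FBtr0100594, with the same start and end, at 16.9 TPM. Of the transcripts from the downstream start at 14616267, FBtr0100593 reached 1.05 TPM and FBtr0100590 reached 0.26 TPM.

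Evenly split genes were few. A gene was called evenly split when its second transcript had at least 80% of the TPM of the leading one, which held for 417 genes (6.58% of those described). In 191 of them (3.02%) the first 2 transcripts together held at least 90%, which is called an even pair here, and in the other 226 further transcripts took a larger part. The share of evenly split genes was 3.31% with 2 transcripts, 13% with 5 to 9 and 22.1% with 10 or more. Even pairs went the other way, with 104 of 3141 genes with 2 transcripts, 17 of 921 with 5 to 9 and 1 of 217 with 10 or more. Of the 191 even pairs, 86 had the same start and end, 43 another start, 48 another end and 14 both. Over all 6333 genes these classes made up 29.8%, 28.6%, 30.5% and 11.0%. In 24 of the 191 (12.6%) the spliced lengths differed by less than 10 nucleotides. The same held for 399 (8.11%) of all 4922 genes whose second transcript had at least 20 counts.

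The 10 most abundant even pairs with at least 1000 counts were of several kinds. CG16826, on 2L from 13347773 to 13349020, has 2 transcripts without introns that begin together and end 61 nucleotides apart. The longer, FBtr0345611, stood at 532 TPM and the shorter, FBtr0080464, at 474 TPM, which is 52.9% and 47.1%. By counts the longer held 54.2% of 20745 (95% exact binomial interval 53.5 to 54.8%). ND-ACP, the acyl carrier protein of the mitochondria and a subunit of complex I, was also divided between 2 ends, with 162 TPM in FBtr0072676 and 148 TPM in FBtr0072677, while the remaining transcript had 26.9 TPM.

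Pairs with different starts included smg and Bacc. The gene smg encodes Smaug, an RNA-binding protein that represses and clears maternal mRNAs in the early embryo. It lies on 3L from 8990317 to 8997989 and has 5 transcripts with a common end and 5 different starts. FBtr0290103 had 209 TPM and FBtr0076549, which begins further upstream, had 190 TPM, against 10.88 to 12.97 TPM for the remaining 3. With 35052 counts, smg was the most deeply counted of the 10 pairs, and its lead held 49.7% of counts (95% exact binomial interval 49.2 to 50.2%). Bacc, on 2L, had 277 TPM in FBtr0077714 and 222 TPM in FBtr0077713, 2 transcripts with the same end and different starts, and with 1.24959 times as much TPM in the first as in the second it lay just inside the limit.

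The other pairs shared both start and end. In vig2, on 3R, FBtr0084776 of 1701 nucleotides had 311 TPM and FBtr0113354 of 1551 nucleotides had 276 TPM, whereas the other 2 transcripts had 20.5 and 7.48 TPM. slmo, which encodes a mitochondrial protein, had 134 TPM in a transcript of 1281 nucleotides and 122 TPM in one of 1161 nucleotides. CkIIalpha, the catalytic subunit of casein kinase 2, had 172 and 147 TPM in transcripts that differed by 25.1 nucleotides, followed by one of 20 TPM. In CG10433 the order depended on the unit, since FBtr0071690 led with 133 TPM against 114 TPM but had 2124 counts against 2146 for the longer FBtr0071691. Obp56g, of the odorant-binding protein family, had 404 and 341 TPM in transcripts that differed by only 3.04 nucleotides. CG31226 had 399 and 331 TPM in transcripts that differed by 4.95 nucleotides. For the last 2 genes the transcripts are nearly the same over most of their length, and in CG16826 the shorter transcript lies within the longer. The accuracy of the division was not tested for any of the even pairs.

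**Figure D3:**
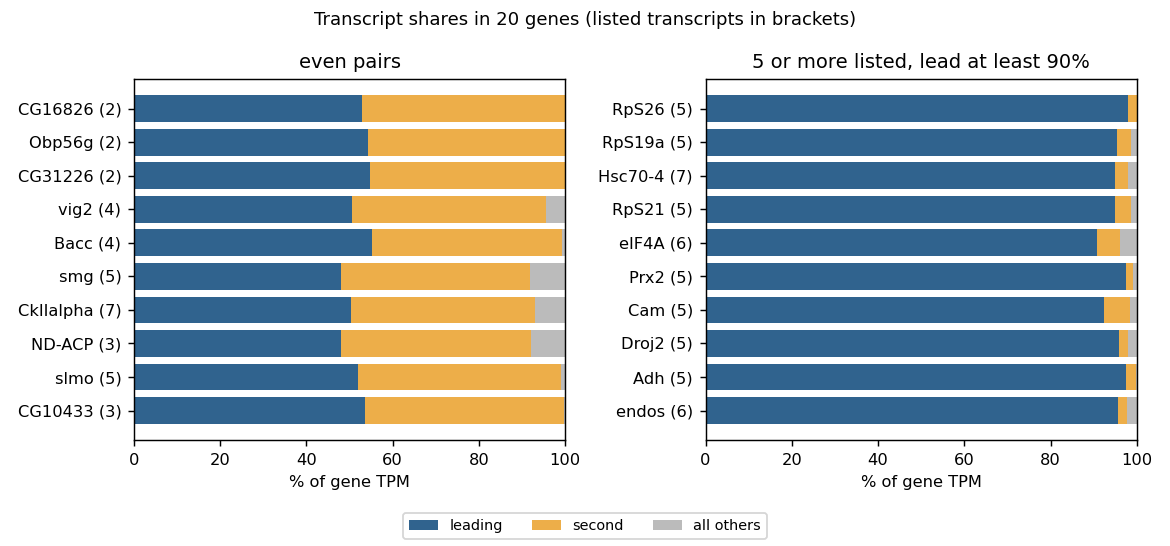
Share of the gene's TPM in percent (horizontal axes) held by the leading transcript, the second and all others, for the 10 most abundant even pairs (left) and the 10 most abundant genes with 5 or more listed transcripts and a lead of at least 90% (right). Leads run from 48% in smg to 55.1% in Bacc on the left, and from 90.7% in eIF4A to 98.0% in RpS26 on the right.

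Some genes spread their output over many transcripts. An effective number of at least 5 was reached by 101 genes. The largest among genes with at least 1000 counts was 14.2, in slo, which encodes a calcium-activated potassium channel on 3R. Its 23 transcripts had 15.6 TPM in all, its leading one, FBtr0100631, had 1.48 TPM and 123 counts, and its second, FBtr0100633, had 1.41 TPM and 118 counts. None reached 10% of the gene. The leading 2 have the same start and end, and lengths that differ by 22.4 nucleotides. By counts the lead was 8.69% (95% exact binomial interval 7.27 to 10.3%). RIC-3, a chaperone of nicotinic acetylcholine receptors, had an effective number of 12.7 over 19 transcripts, with 18.7% of its TPM in the first and 9.08% in the second. Sxl, the master switch of sex determination on the X chromosome, had an effective number of 11.6 over 25 transcripts. Its first 2, FBtr0331266 with 7.21 TPM and FBtr0331258 with 6.97 TPM, share a start and have different ends, and each of the others was below 4 TPM.

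The remaining 7 genes with the largest effective numbers ranged widely in level. Among them Mf, the thick filament protein myofilin, was the most abundant with 570 TPM, and its 17 transcripts were led by FBtr0306644 with 77.6 TPM, FBtr0083033 with 73.4 TPM and FBtr0345220 with 66.7 TPM. The effective number was 10.7 in Mf, 10.7 in mtd, 10.5 in dlg1, a scaffold of septate junctions and synapses, and 9.91 in scrib, a scaffold of epithelial polarity. It was 9.81 in CLIP-190, which binds the growing ends of microtubules, 9.56 in Mbs, the myosin-binding subunit of myosin phosphatase, and 9.31 in Su(var)2-10, a SUMO ligase of the PIAS family. In dlg1 the 3 leading transcripts, with 10.3, 8.73 and 7.20 TPM, had lengths of 7238, 4835 and 2117 nucleotides. In Su(var)2-10 the 3 leading transcripts were within 0.6 TPM of each other, at 25.8, 25.3 and 25.2 TPM. In mtd the leading 2, with 25.1 and 19.9 TPM, share start and end and differ by 4.04 nucleotides.

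**Figure D4:**
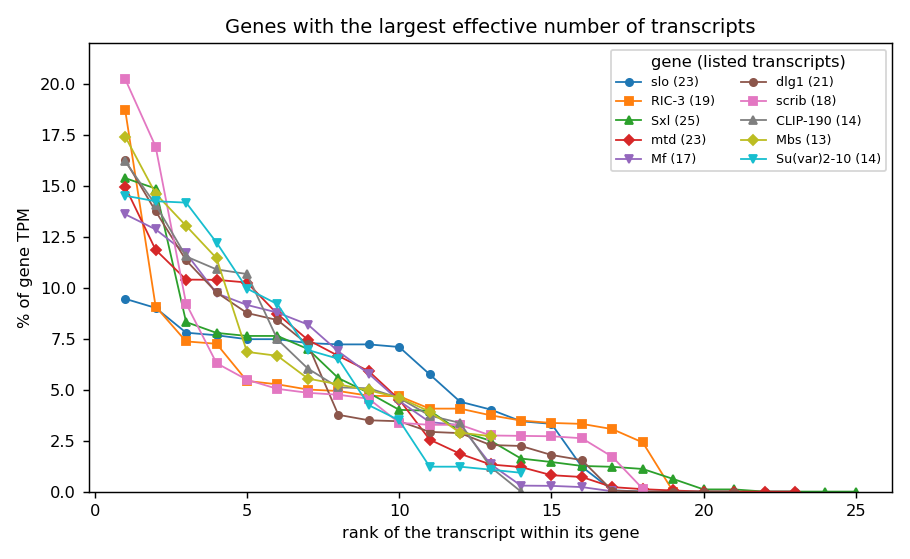
Share of the gene's TPM in percent (vertical axis) by rank of the transcript within its gene (horizontal axis) for the 10 genes with the largest effective number of transcripts among those with at least 1000 counts. The curve of slo starts lowest, at 9.46%, and that of scrib starts highest, at 20.2%.

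Dscam1, a cell recognition receptor of neurons known for its very large number of exon combinations, had the most listed transcripts, 75. It had 929 counts in all. FBtr0334801, of 9149 nucleotides, held 439 counts and 43.8% of 6.49 TPM, the next transcript had 75 counts, and 45 of the 75 had none. Its effective number was 4.68.

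Gene groups differed in how far 1 transcript led, and also in how many transcripts were listed. The lists were of pathways and tissues, 14 in all, and are set against the median of 87.8% and the 46.0% of all described genes with a lead of at least 90%. These 2 figures are not matched for the number of listed transcripts. Over all genes with 3, 4, 5 to 9 and 10 or more listed, the medians were 84.7%, 74.3%, 60.2% and 39.4%. Evenly split genes made up 6.58% of all described genes, 13% of those with 5 to 9 listed and 22.1% with 10 or more. The counts of evenly split genes in the lists were not matched for this number either. Cytosolic ribosomal proteins had 91 genes in the table, 22 of them with a single transcript. Of the 69 others, 52 had a lead of at least 90% and none was evenly split, with a median of 98.0% and a median of 3 listed transcripts. RpL19 had 3434 TPM and a lead of 99.5%, RpL27A 3223 TPM and 98.3%, and RpS25 3218 TPM and 97.7%. The others included RpS7 with a lead of 58.5% and RpL27 with 54.2%, both chosen after their values were seen. The lowest lead of the list was that of RpL28, with 1016 TPM in FBtr0073097, 708 TPM in FBtr0073098, which begins elsewhere, and a lead of 48.4%.

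Translation factors had 8 of 12 genes led by at least 90% and a median of 91.7%. The elongation factor gene eEF1alpha1 had 5617 of its 5691 TPM in 1 transcript (98.7%). The gene eEF2 had a lead of 99.5% and eEF1beta one of 99.9%. Pdcd4 was the evenly split gene of the list, and its 4 transcripts had 34.2, 31.3, 28.4 and 20.7 TPM. The few yolk, vitelline and seminal fluid genes with 2 transcripts had leads of 99.3% or more in 5 of 5, and Yp1 had all but 0.02 of its 913 TPM in 1 transcript.

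Enzymes of glycolysis stood at a median of 85.7%, with 7 of 14 led by at least 90%. Gapdh1 and Gapdh2, which encode glyceraldehyde 3-phosphate dehydrogenase, had all but 0.03 of 849.8 TPM in 1 transcript and a lead of 99.8%, respectively. Eno, enolase, had a lead of 65.9% at 676 TPM. Tpi, triose phosphate isomerase, was spread over 3 transcripts with 261, 200 and 149 TPM. The ATP synthase and respiratory chain list had 9 of 20 led by at least 90% and a median of 87.1%. ATPsynbeta, the catalytic subunit of the ATP synthase, had a lead of 99.2%. ATPsynC, of its membrane ring, had 436, 277 and 170 TPM in transcripts that end together and begin at 3 places. ATPsyngamma, the central stalk, had 255 TPM in one transcript and 183 TPM in another with a different start and end. In a list of 4 transporters, with a median of 87.3% and 2 led by at least 90%, sesB, the ADP/ATP translocase, had 1117 and 254 TPM in transcripts from 2 starts.

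Muscle genes had a median lead of 61.6% over 20 genes, with 4 led by at least 90% and 3 evenly split, and a median of 7.5 listed transcripts. After Mf, Zasp66, a protein of the Z-disc, was the most abundant at 524 TPM with a lead of 57.3%, followed by SERCA, the calcium pump of the sarcoplasmic reticulum, with 276 and 149 TPM in its first 2 transcripts, which end at different sites. Mp20, a muscle protein with 2 transcripts, had a lead of 99.5%. wupA, which encodes troponin I, was the most evenly led of the list, with 49.8 TPM in FBtr0336896 and 48.0 TPM in FBtr0074521, a ratio of 1.04. The low level of flight muscle markers bears on this list, since a different mixture of muscles would weigh the transcripts otherwise, and its part was not tested.

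Genes of channels and synapses had a median of 57.6% over 21 genes, with 1 led by at least 90% and 4 evenly split. Their median number of listed transcripts was 8, and all described genes with 5 to 9 listed had a median lead of 60.2%. Of all described genes with 5 to 9 listed, 13% were evenly split. cpx, complexin, a regulator of vesicle fusion, had 27.3% of its TPM in its leading transcript and 9.01% in the next of 21. Syt1, the calcium sensor of vesicle release, had 18.2, 11.9 and 9.86 TPM in its first 3. nSyb, the vesicle protein synaptobrevin, had a lead of 57.6%. RNA-binding proteins known from neurons had a median of 59.3% over 12 genes, with a median of 10.5 listed transcripts. None of them was led by 90% or evenly split. The most abundant gene of that list was bru1, at 321 TPM, which represses maternal mRNAs in the ovary. Its first 3 transcripts had 144, 103 and 52.7 TPM from 3 different starts. Fmr1, the fragile X protein, had a lead of 80.7%, while elav and fne had only 4.82 and 3.52 TPM in all. Which cells these transcripts came from was not tested.

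Regulators of splicing were themselves unequal. Of 20 SR proteins and hnRNPs, 7 had a lead of at least 90%, 2 were evenly split and the median was 82.0%. Hrb27C had 135 TPM in FBtr0079346 and 120 TPM in FBtr0301403, which begin together and end at different sites, and a much longer transcript with 31.9 TPM. heph, the polypyrimidine tract binding protein, had 24.4 and 23.6 TPM in its first 2 of 25 transcripts. B52, an SR protein, had a lead of 80.2%, with 293 TPM in the first transcript and 18.7 and 17.1 TPM in the next 2.

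The lowest medians were those of chromatin and BTB proteins, 49.6% over 13 genes, and of sex determination, 34.4% over 7 genes. Both lists have long transcript lists, with medians of 8 and 6 per gene. mod(mdg4), a BTB protein known for joining exons of separate transcripts, had 730 TPM over 31 transcripts and a lead of 24.5%. Of its 9 transcripts with at least 500 counts, 5 are listed with the same start at 21377399, the same end at 21375060 and a spliced length of 1360 to 1361 nucleotides. These 5 held between 65.4 and 102 TPM each and together 52.3% of the gene, and their listed positions and lengths do not tell them apart. lola, another BTB gene, had 148 TPM in FBtr0089349 and 114 TPM in FBtr0089357 with a different start and end. In tra, whose female transcript encodes the splicing factor of female development, FBtr0100244 of 861 nucleotides had 68.2% of the TPM and FBtr0075364 of 686 nucleotides had 31.8%, both with the same start and end. The lead in tra was 73.0% of 429 counts (95% exact binomial interval 68.5 to 77.1%). In fru, which directs male courtship, the first 2 of 15 transcripts had 1.52 and 1.51 TPM on 58 and 106 counts. fl(2)d, a factor that Sxl splicing needs, was led by 93.0%.

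Protein kinases had a median of 57.1% over 14 genes, with 3 led by at least 90% and 3 evenly split, and a median of 6.5 listed transcripts. for, the cGMP-dependent kinase of foraging behaviour, had 88.9 TPM in FBtr0089308 and 74.1 TPM in FBtr0446099, from different starts. sgg, the fly GSK3, had 31.5 and 30.9 TPM in transcripts that differ at both ends, a ratio of 1.02. In CaMKII, on chromosome 4, 5 of 12 transcripts were in use, and the first 2 had 16.6 and 15.6 TPM. Pka-R1, a regulatory subunit of protein kinase A, was led by 30.1%.

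The cytoskeleton list had a median of 68.3% over 13 genes, with a median of 5 listed transcripts. betaTub56D, the common beta tubulin, had all but 0.48 of its 1682 TPM in 1 transcript, and 2 genes of the list were led by at least 90%. Act5C, a cytoplasmic actin with 2 promoters, is the most abundant gene whose leading transcript depended on the unit. FBtr0070822 of 1636 nucleotides led by TPM with 733 against 637 TPM, and FBtr0070823 of 2653 nucleotides led by counts with 28583 against 20282. Its upstream promoter held 61.2% of TPM. Over all genes, the leading transcript by counts was another one in 152 genes (2.40%), of which 103 were evenly split.

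**Figure D5:**
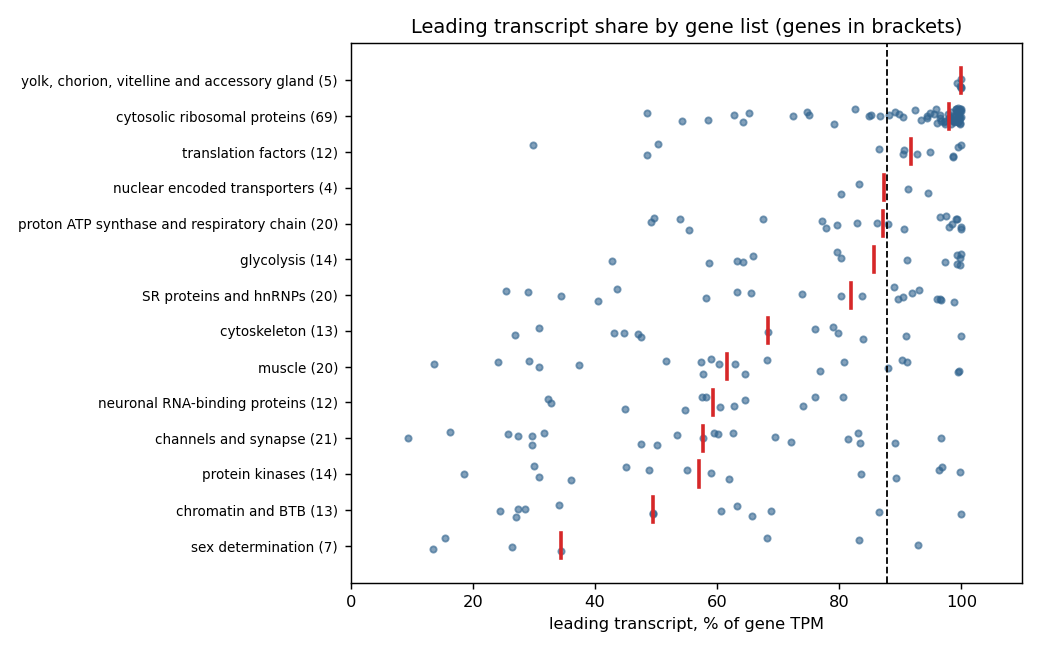
Leading transcript share of the gene's TPM in percent (horizontal axis) for each gene (blue points) of 14 lists, with the list's median in red and the median of all described genes, 87.8%, as a dashed line. Ribosomal proteins lie mostly at the right, with RpL28 among the few at the left, and medians run from 34.4% for sex determination to 99.9% for yolk, eggshell and seminal fluid genes.

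Medians by chromosome arm were also compared. With 2 transcripts listed, the median leading share was 97.3% on X, 97.4% on 2L, 95.5% on 2R, 95.6% on 3L and 94.9% on 3R. Over all genes described, the 72 genes of chromosome 4 had a median of 73.0%, and its 21 genes with 2 transcripts one of 95.2%. The 2 genes of the Y chromosome each had 1 transcript with all of the TPM.

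Genes near the limits show what these separate. With 100 counts, CG14050 and CG42662 were just included, and with 99 counts CG16959 and CG18265 were just left out. At the limit of a 90% lead, CanA1 stood at 90% and CG7322 at 90.01% on the inner side, and CG10477 and dmpd at 89.98% and 89.97% on the outer. At the limit of evenness, Dop1R1 lay on the limit itself and atos just inside it with 1.2497 times as much TPM in the first transcript as in the second, while CG12024 had 1.25012 times and Liprin-alpha 1.2506 times as much. Members that overlap another listed gene numbered 3227 (51.0%), and their median leading share was 86.0%, against 89.5% for the rest. This contrast was not matched for the number of listed transcripts. Leaving out overlapping genes moved the median with 2 listed from 96.3% to 96.6%. With 10 or more listed it moved from 39.4% to 38.1%.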

How the data were processed

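The mRNA library of adult fruitflies was analysed at the level of transcripts. The deposited counts, one whole number for each transcript, were not normalized, and since overlapping transcripts of a gene carry different values they were taken as estimates that the authors rounded. The deposited TPM and FPKM values were also made by the authors and are proportional to each other. The submitters' processing notes list CASAVA and HISAT2. No source used here names the counting tool, strand setting, genome build or annotation. Start and end equalled those of RefSeq Release 6 for 6249 of 6277 genes matched by symbol (99.6%), so positions are given as in Release 6.

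Shares were computed from TPM with pandas 2.3.3 in Python 3.11.15, and exact (Clopper-Pearson) 95% intervals with scipy 1.17.1. They cover counting error only. Spliced length was taken as counts divided by FPKM, scaled to a library of 26878791 fragments, estimated from the 30 transcripts with the highest ratio of this length to genomic span, taken to have no introns. The share computation was tested on simulated data with an independent count for each transcript, which does not test how reads were assigned among transcripts. The depth was 26179479 counts in the 1 library.

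The members and lists were chosen with earlier results of these data known. Named genes were the 10 most abundant even pairs and the 10 with the largest effective number (both with at least 1000 counts), the 10 most abundant with 5 or more transcripts and a lead of at least 90%, the gene with most transcripts, those next to each limit, and of each list the 4 most abundant and the most even. Only some of the list genes are described. Alternatives changed the unit, the count minimum, the limits, and the treatment of overlapping genes and of transcripts with shared start and end. The small RNA library was not used here.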

Additional observations from a re-analysis of the deposited data

How the results depend on the processing

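The median leading share of 87.8% was 87.0% by counts, 86.1% with at least 1000 counts per gene, 89.5% without overlapping genes and 91.7% with transcripts of the same start and end added together (5161 genes left). The 2911 genes with a lead of at least 90% (46.0%) became 1623 with at least 1000 counts (43.6% of 3724 genes) and 1522 without overlapping genes (49.0% of 3106), as fewer genes entered. With transcripts of the same start and end added together they became 2793 (54.1% of 5161). With the limit at 80% there were 3878 genes (61.2%), and with the limit at 95% there were 2163 (34.2%). The 417 evenly split genes became 253 with at least 1000 counts, 196 without overlapping genes, 228 with transcripts of the same start and end added together, 185 at a ratio of 1.1 and 715 at a ratio of 1.5. The leading transcript was the longest of its gene in 25.3%, and in 27.1% when the lead was taken by counts. The difference in median lead between genes with 2 and with 10 or more transcripts, 56.9 percentage points, lay between 56.7 and 59.7 under all 6 alternatives. The difference between 2-transcript genes with at least 10000 and with 100 to under 300 counts was 5.78 points and lay between 4.33 and 6.52 under 4 alternatives, and a minimum of 1000 counts left no such low class. Of the 14 lists, 11 had a median below that of all genes, and 8 to 11 under 5 alternatives added after the data had been seen. This comparison was not matched for the number of listed transcripts. No paired analysis was possible because there is 1 library. Counting depth limits genes such as Dscam1 and fru, and the assignment of reads among near-identical transcripts has no error estimate here.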

Other observations

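Non-coding genes with several transcripts were fewer than coding ones. The 56 genes annotated as long non-coding RNA had a median leading share of 89.6%, and the 6171 protein-coding genes one of 87.8%. With 2 transcripts listed the order was the opposite, at 93.8% for 32 long non-coding genes and 96.4% for 3045 coding genes. The 27 genes annotated as antisense RNA had a median of 76.5%, with 20 of them having 2 transcripts and a median of 79.2%. Antisense genes overlap another gene, and without a stated strand setting their reads and those of the partner cannot be told apart. lncRNA:CR42862 was the most abundant of the long non-coding genes with 564 TPM and a lead of 88.5%. lncRNA:Hsromega, a heat-shock-inducible RNA, was an even pair with 238 TPM, in which the first 2 of 7 transcripts held 50% and 48%.

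The 6 most abundant genes whose leading transcript changed with the unit, picked after their values were seen, each had a shorter transcript ahead by TPM and a longer one ahead by counts. This order is fixed by the units, since the lengths were derived from the ratio of counts to FPKM, and nothing is read from it. In Lk6, a kinase of the initiation factor eIF4E, the transcript of 4377 nucleotides had 187 TPM and 13858 counts, and that of 6281 nucleotides had 134 TPM and 14223 counts. In Ggamma1, a subunit of heterotrimeric G proteins, the transcript of 1083 nucleotides had 221 TPM and 4056 counts, and that of 2554 nucleotides had 102 TPM and 4399 counts.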
